A study of Mus musculus with 12 samples.

Results

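Regulatory T cells (Treg) of the spleen that were sorted after depletion of the resident Treg and treatment with intravenous immunoglobulin (IVIg), labelled iTreg, were compared with endogenous Treg, labelled eTreg. The members were the 4 arrays of each group, 8 of the 12 arrays of the series, chosen by their titles, and the measurements were the log2 expression values of all 23521 probe sets with exactly 1 gene symbol (22180 genes). All mice were DEREG mice, in which the Foxp3 promoter drives a diphtheria toxin receptor joined to a green fluorescent protein, and all had ovalbumin (OVA) sensitisation and challenge, a model of allergic airways disease. Mice of the eTreg group were given 2 g/kg of a control protein, human serum albumin (HSA), and the series design lists no diphtheria toxin (DTx) for them. The iTreg group received DTx at 40 ng/g and then IVIg, pooled human IgG, at 2 g/kg. The third group, e_iTreg, received IVIg without DTx, is described as a mixture of endogenous and induced Treg, and is used here only to set its levels beside the others. One growth protocol text, in which DTx precedes either protein, is attached to every sample, so whether eTreg mice had DTx was taken from the series design. No mice given DTx with HSA were analysed here, so IVIg and DTx changed together between the groups and their parts cannot be told apart. DTx kills cells that carry the receptor when it is given and not cells that turn Foxp3 on later, and no array measured the origin of a cell. The labels used here do not give age, sex or pooling of animals.

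Treg suppress other immune cells, depend on the transcription factor Foxp3 and on interleukin-2, and leave a resting state when they are stimulated or when the Treg compartment is refilled after depletion. A resting lymphocyte that starts to divide first makes the proteins that load and copy DNA, then those of the mitotic spindle, and in parallel lowers genes that hold it in quiescence. Effector Treg are known for granzymes, for receptors of inflammatory cytokines and for altered homing receptors.

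The 8 arrays carried the label's defining markers. Foxp3 read 12.33, 12.50, 12.54 and 12.46 in eTreg replicates 1 to 4 and 11.84, 12.16, 12.26 and 12.43 in iTreg replicates 1 to 4, a log2 difference of -0.29 ± 0.13 with an unadjusted 95% interval of -0.57 to -0.01 and an adjusted p of 0.218 by limma (iTreg minus eTreg ± SE, n = 4 arrays each, as for every difference below). The groups overlapped, with iTreg replicate 1 the lowest of the 8. Among 16 markers of T cells and Treg only Izumo1r, the folate receptor 4 of Treg, passed the test, at -0.46 ± 0.11 (6.25% lower, near the 4.63% of all probe sets). The largest difference of that list was in Gpr83, a receptor of Treg, at -0.99 ± 0.30 with an interval of -1.63 to -0.35 and an adjusted p of 0.0505 by limma, and Nrp1 (neuropilin-1) was at -0.32 ± 0.12 with an interval of -0.59 to -0.06. Ikzf2, which encodes Helios, differed by -0.04 ± 0.10 with an interval of -0.25 to 0.18, and Il2ra, the high-affinity interleukin-2 receptor chain, by -0.12 ± 0.14 with an interval of -0.41 to 0.17. Flicr, a long noncoding RNA encoded beside Foxp3 and named here after its values were seen, read 7.85, 8.28, 8.31 and 8.62 in eTreg and 7.05, 7.34, 7.23 and 7.34 in iTreg, so that every iTreg array lay below every eTreg array and the difference was -1.02 ± 0.14.

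A principal component analysis of all 12 arrays put 40.6% of the variance on component 1, on which iTreg scored 22.9 to 35.5, eTreg -24.4 to 1.99 and e_iTreg -28.7 to 1.47, and pairwise correlations lay between 0.967 and 0.993. Some arrays also stood apart within their group. The mean of 19 B cell markers was 8.54, 8.33, 6.66 and 6.69 in eTreg replicates 1 to 4 and 8.13, 7.68, 7.84 and 8.02 in iTreg, so eTreg replicates 3 and 4 were low, and iTreg replicate 4 had the highest means of the plasma cell (9.61), neutrophil (7.48) and monocyte, macrophage and dendritic (7.89) markers, where the other 7 arrays reached at most 8.23, 6.56 and 6.94. Of these lists 0 B cell and 0 neutrophil markers passed the test. In the plasma cell list 2 of 11 markers were higher (18.2%, Prdm1 and Creld2, a count of 1 to 4 with 1 array left out). In the monocyte list 2 of 21 were higher (9.52%, Itgam and Cst3), and over all probe sets 5.36% were. Differences were above 0 in 15 of 19 B cell, 11 of 11 plasma cell, 12 of 12 neutrophil and 17 of 21 monocyte list markers, beside a median difference of -0.01 over all tested probe sets. The plasma cell mean was at least 7.88 in every iTreg array and at most 7.81 in eTreg, so its difference was not limited to iTreg replicate 4. That mean includes Prdm1 and Creld2, and a mean without these 2 genes was not computed, so an excess of plasma cells cannot be read from it. Jchain had the largest difference of the list, 2.62, and did not pass. A log2 array value has no true 0, so absence of these transcripts cannot be read from it. Among 14 NK cell markers 11 were above 0 in difference and 2, Gzma and Nkg7, rose, with Klrk1 at 0.45 ± 0.18, the adaptor Tyrobp at 0.54 ± 0.38 and the defining receptors Ncr1 and Klrb1c at 0.05 ± 0.15 and -0.20 ± 0.15. The NK list mean was 6.80, 6.59, 6.24 and 6.15 in eTreg and 7.02, 6.73, 6.65 and 7.05 in iTreg, which overlap. In it iTreg replicates 1 and 4 lay above every eTreg array, but the mean includes Gzma and Nkg7. A mean without these 2 genes was not computed, so an excess of NK cells cannot be read from it. Both CD8 chains, Cd8a at 0.28 ± 0.28 and Cd8b1 at 0.15 ± 0.20, did not pass. Xist and Y-linked transcripts were both present in most arrays, while Eif2s3y, which is Y-linked, was low in eTreg replicate 3 (4.33) and iTreg replicate 4 (4.47), the remaining 6 arrays lying between 7.12 and 8.40. The part of these differences in the results was not tested beyond the values without the arrays concerned, given below.

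The difference between iTreg and eTreg was broad, and its large changes ran upward. By limma's test 1261 of 23521 probe sets were higher in iTreg (5.36% of those tested) and 1088 were lower (4.63%), 2349 in all (9.99%), and 5103 had an unadjusted p under 0.05. Without eTreg replicate 3 the counts were 834 and 653, and without eTreg replicates 3 and 4 they were 204 and 202. Lower counts were also lost by over 1.5 times without eTreg replicate 2 (681) or iTreg replicate 1 (723). All adjusted p-values are from this test with Benjamini-Hochberg adjustment over the 23521 probe sets, and a gene is said to rise or fall only at adjusted p 0.05 or less. With 1 probe set per gene, the brightest, 1212 genes rose and 1055 fell. Rises of more than 2-fold were found in 297 probe sets and falls of that size in 58, while 55 rose and 0 fell by more than 4-fold. The median over all tested probe sets was -0.01, a value that the normalization of the arrays to one distribution holds near 0. The 4 iTreg arrays lay wholly above the 4 eTreg arrays in 1622 probe sets (6.9%) and wholly below in 1839 (7.82%). The third group shares the fit, and its levels are given for a few genes and lists. Of the 2267 genes that rose or fell, 0 passed in e_iTreg minus eTreg. That comparison shares the eTreg arrays, and a gene that did not pass in it may still differ. For every list count below, the shares to set beside it are 5.36% higher and 4.63% lower over all probe sets. These shares are larger among bright probe sets. A fit of only the probe sets above the median level gave 1350 higher and 1324 lower, more than the fit of all. Most list means lie above the array medians, so a list share somewhat above 5.36% or 4.63% need not exceed that of equally bright genes, which was not computed.

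**Figure D1:**
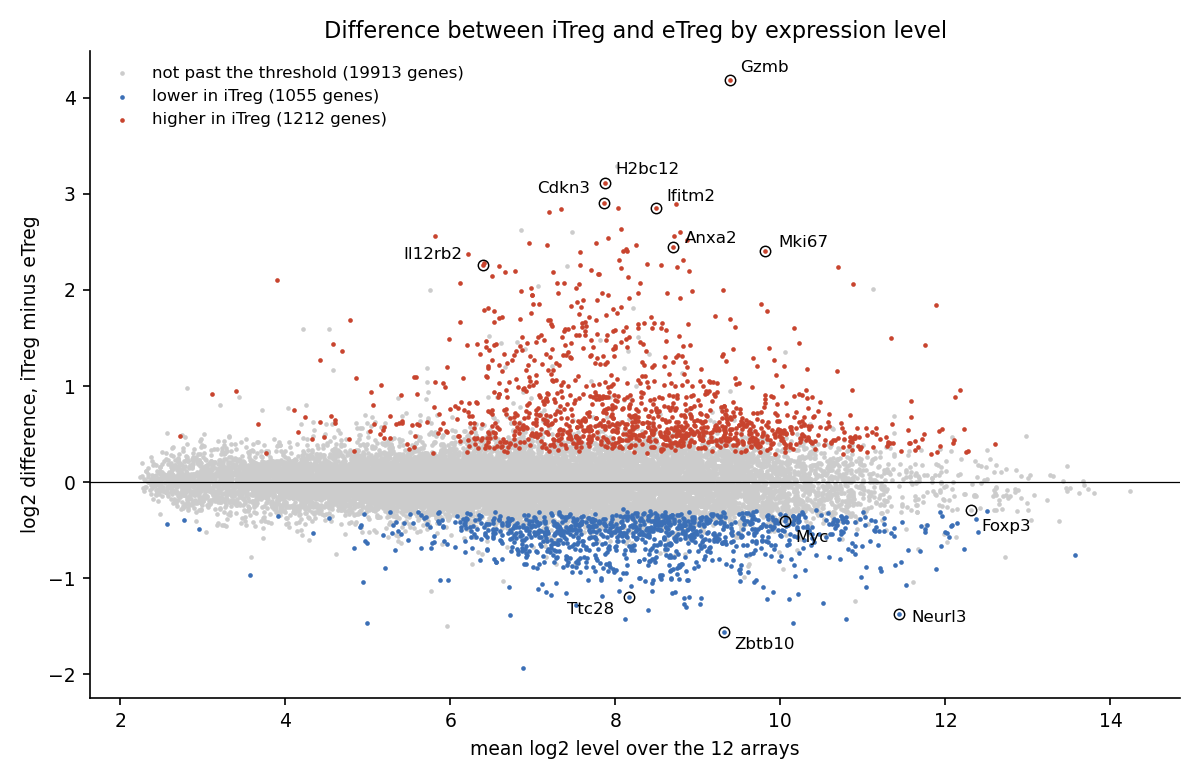
Each point is 1 gene, with its mean log2 level over the 12 arrays on the x axis and its log2 difference, iTreg minus eTreg, on the y axis. Red points (1212 genes) rose, blue points (1055) fell and grey points did not pass the test, and circles mark named genes. Rises reach 4.18 for Gzmb, and the named fall of largest size is -1.56 for Zbtb10.

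The largest named rise was that of Gzmb, which encodes granzyme B, a serine protease of cytotoxic granules that Treg also use. It read 9.55, 8.23, 7.41 and 6.61 in eTreg replicates 1 to 4 and 12.07, 11.95, 11.75 and 12.75 in iTreg replicates 1 to 4, a difference of 4.18 ± 0.53 (18.1-fold, adjusted p = 0.000623). The eTreg arrays spanned 2.94 log2 units and were more scattered than the iTreg arrays. In e_iTreg it read 7.92, 9.52, 7.54 and 7.33. H2bc12, a replication-dependent histone, came second at 3.12 ± 0.61, and of the 20 largest named rises all but Gzmb, Ifitm2, Ifitm3 and Anxa2 were histones or genes of cell division.

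**Figure D2:**
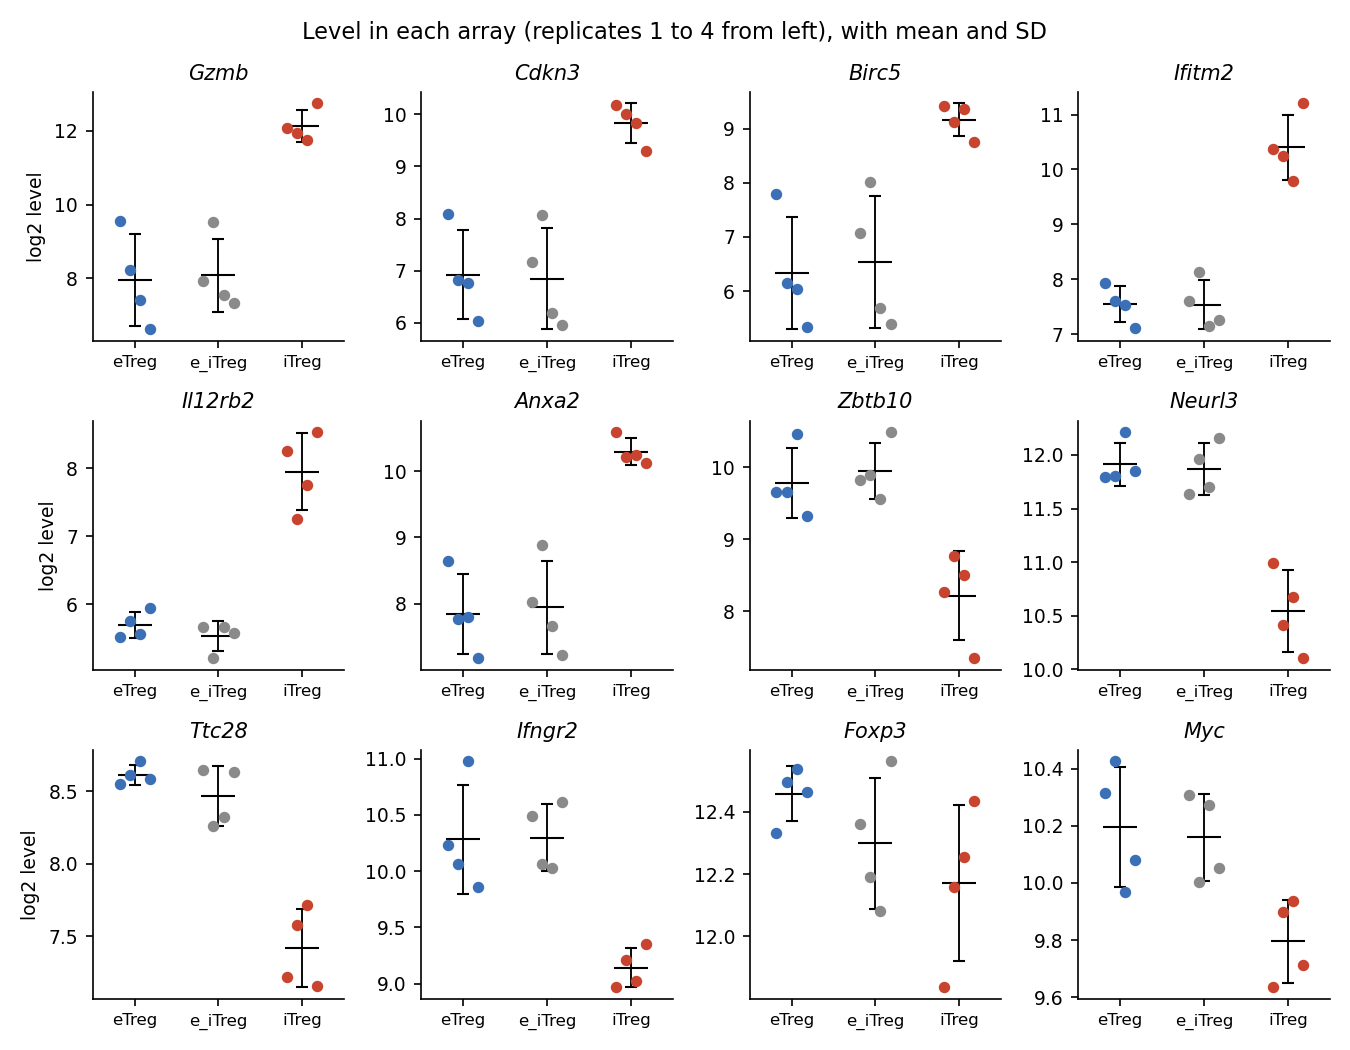
Log2 levels of 12 genes in every array of eTreg (blue), e_iTreg (grey) and iTreg (red), with points for replicates 1 to 4 from left to right and the mean with SD in black. Each panel has its own y axis, which does not start at 0. The iTreg points lie apart from eTreg in 11 of the panels, and the groups overlap for Foxp3.

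Genes of cell division were frequent among the largest rises. Over 8 lists of that theme 265 genes were measured, of which 186 rose and 5 fell, with a median difference of 0.94. These were 15.3% of the 1212 genes that rose, so most rises lay outside the lists. They made up 32 of the 55 genes that rose more than 4-fold and 125 of the 289 genes that rose more than 2-fold. The genes whose promoters are shown first are Cdkn3, a phosphatase that acts on cyclin-dependent kinases, Prr11, a proline-rich protein of dividing cells, and Depdc1a. They were the 3 largest rises whose promoter window held the cell cycle homology region (CHR), the element through which the DREAM and MuvB complexes repress and then activate mitotic genes.

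The sequences below run from 150 bases before to 30 bases after the start of transcription, 5′ to 3′ on the gene's strand, from RefSeq on GRCm38.p6, and capitals mark the CHR. They are shown because these genes rose together and hold the same short element. The intervals are chr14:46760391-46760570 on the plus strand for Cdkn3, chr11:87108685-87108864 on the minus strand for Prr11 and chr3:159495283-159495462 on the plus strand for Depdc1a.
Cdkn3: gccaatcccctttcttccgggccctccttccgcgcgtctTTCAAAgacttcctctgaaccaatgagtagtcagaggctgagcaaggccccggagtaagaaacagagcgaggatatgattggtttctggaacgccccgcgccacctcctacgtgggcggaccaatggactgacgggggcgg
Prr11: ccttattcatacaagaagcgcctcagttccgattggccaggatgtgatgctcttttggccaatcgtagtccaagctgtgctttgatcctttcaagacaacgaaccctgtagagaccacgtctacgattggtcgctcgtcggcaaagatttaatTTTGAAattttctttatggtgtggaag
Depdc1a: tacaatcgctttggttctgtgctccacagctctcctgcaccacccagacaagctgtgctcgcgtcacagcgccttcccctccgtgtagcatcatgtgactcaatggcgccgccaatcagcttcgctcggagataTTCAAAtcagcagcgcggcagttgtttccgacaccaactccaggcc
The CHR was searched as TTTGAA or TTCGAA on both strands, so it reads TTCAAA in Cdkn3 and Depdc1a. It began 111 bases before the start in Cdkn3, 16 bases before it in Depdc1a and just after it in Prr11. The printed stretches also held 4, 3 and 1 CCAAT boxes (CCAAT, both strands).

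Cdkn3 read 8.08, 6.83, 6.76 and 6.02 in eTreg and 10.19, 9.999, 9.83 and 9.29 in iTreg, a difference of 2.90 ± 0.44 (adjusted p = 0.00137). Prr11 differed by 2.85 ± 0.59 and Depdc1a by 2.81 ± 0.58, and in all 3 genes every iTreg array lay above every eTreg array. Prr11 read 8.62, 7.19, 6.38 and 5.68 in eTreg and 10.30, 9.97, 9.96 and 9.04 in iTreg.

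Promoter windows of 300 bases (250 before and 50 after the start) were at hand for 16918 of the 22180 genes, and a gene counts as holding a motif when any of its windows does. The CHR was found in 24.6% of 966 genes that rose, 16.5% of 830 that fell and 19.4% of all 16918. Among genes that rose over 2-fold the share was 40.8%, and among 87 measured genes of the mitotic lists below it was 64.4%. The CCAAT box was found in 49.5% of the genes that rose, 40.2% of those that fell and 41.6% of all. The E2F site, searched as TTTCCCGC or TTTGGCGC on both strands, was found in 7.66% of genes that rose, 2.77% of those that fell and 2.37% of all, and in 36.1% of 36 genes of the licensing and fork list. The forkhead core TGTTTAC was found in 2.38% of genes that rose, 4.7% of those that fell and 3.53% of all, and in 4.58% of genes over 2-fold higher and 4.88% of those over 2-fold lower. The T-box core AGGTGTGA was found in 1.45%, 1.57% and 1.34%. A match is a run of letters, not a bound site. Within the mitotic lists the 56 genes with a CHR had a median difference of 1.68 and the 31 without one 1.19, given as a description.

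**Figure D3:**
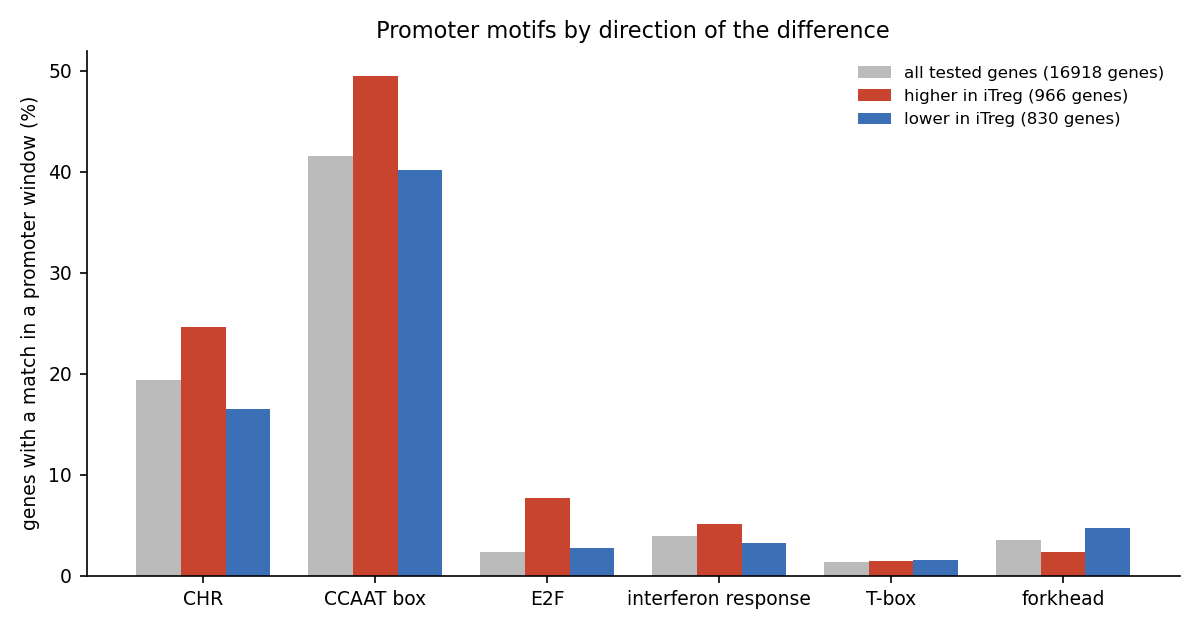
Bars give the percentage of genes with a match to each motif in a promoter window, for all tested genes (grey, 16918), genes that rose in iTreg (red, 966) and genes that fell (blue, 830). The red bar is the tallest of its 3 for the CHR, the CCAAT box, the E2F site and the interferon response motif, and the blue bar is the tallest for the forkhead core and the T-box core.

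Replication genes rose almost throughout. In the licensing and fork list, which holds the helicase, its loaders, polymerases and clamp loaders, 42 of 45 measured members rose (93.3%, against 5.36% of all probe sets) and 0 fell, with a median difference of 0.89. Its list mean was 8.45, 8.08, 8.03 and 7.78 in eTreg replicates 1 to 4 and 9.23, 8.93, 9.31 and 8.84 in iTreg replicates 1 to 4, with no overlap. Cdc45, a subunit of the active helicase, rose by 1.71 ± 0.23 and Mcm10, which helps the helicase start, by 1.53 ± 0.22. Mcm3, of the helicase ring, read 9.36, 8.81, 8.94 and 8.36 in eTreg and 10.43, 9.98, 10.35 and 10.02 in iTreg, a difference of 1.33 ± 0.19. The 3 members that did not pass were Cdc7, Gins4 and Pcna, at 0.43 ± 0.14, 0.34 ± 0.11 and 0.34 ± 0.11.

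Genes of nucleotide supply rose in part. Of 29 nucleotide synthesis genes 10 rose (34.5%) and 0 fell. Rrm2, the regulatory subunit of ribonucleotide reductase, rose most, by 2.26 ± 0.38, followed by Dctpp1, which removes dCTP, by 1.39 ± 0.18, and Tk1, thymidine kinase, rose by 0.91 ± 0.13. Enzymes that build purines and pyrimidines from small precursors did not pass, for example Cad at 0.30 ± 0.13, Gart at 0.17 ± 0.14 and Impdh1 at -0.20 ± 0.12. Replication-dependent histones, made in S phase, rose in 11 of 21 measured genes, with H2bc12 reading 8.46, 6.95, 5.89 and 6.09 in eTreg and 9.68, 10.56, 10.35 and 9.25 in iTreg. The histone H4c14 fell, at -0.82 ± 0.24, a call that ended without any 1 of 6 of the 8 arrays. Histone genes are near-copies of each other and their probe sets may share signal.

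Mitotic genes rose with larger differences than those of replication. All 39 measured genes of the spindle and cytokinesis list rose, with a median of 1.92, as did 31 of 35 centromere and kinetochore genes (88.6%, median 1.34) and 20 of 30 genes of condensin, cohesin and mitotic exit (66.7%, median 1.40). Birc5, a subunit of the chromosomal passenger complex, read 7.79, 6.15, 6.04 and 5.33 in eTreg and 9.42, 9.13, 9.37 and 8.76 in iTreg, a difference of 2.84 ± 0.52. Hmmr, a spindle-binding receptor for hyaluronan, rose by 2.49 ± 0.32, Cep55, of the final cut between daughter cells, by 2.47 ± 0.39, and Prc1, which bundles the central spindle, by 2.17 ± 0.32. The sister chromatid protease Espl1 (separase) rose by 1.74 ± 0.25 and Fbxo5 (Emi1), an inhibitor of the anaphase-promoting complex, by 1.66 ± 0.22. Cdk1, the mitotic kinase, and Ccna2, its cyclin, rose by 2.63 ± 0.54 and 2.60 ± 0.57. Mki67, the proliferation antigen Ki-67, read 10.48, 8.88, 8.75 and 7.68 in eTreg and 11.76, 11.05, 11.57 and 11.05 in iTreg, with no overlap. Without eTreg replicates 3 and 4 the calls on Mki67, H2bc12, Prr11, Depdc1a, Birc5, Cdk1, Ccna2 and Rrm2 ended, and that on Mki67 also without the arrays low in Y-linked genes and in the fit with an intensity trend.

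A few members of these lists did not move with the rest. Smc4, a condensin core subunit, was at -0.35 ± 0.10, lower, a call that ended without any 1 of 7 of the 8 arrays, while its partner Smc2 rose by 1.61 ± 0.26. Securin, Pttg1, was at -0.01 ± 0.12, and the cohesin subunits Smc3 and Stag2 at 0.20 ± 0.12 and -0.11 ± 0.10, none past the threshold. Centromere members Zwint and Cenpq were at -0.10 ± 0.14 and -0.15 ± 0.13.

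Entry into the cycle and repair followed with smaller counts. Of 36 G1 cyclins, CDK inhibitors and E2F factors 17 rose (47.2%) and 3 fell. Ccne1 (cyclin E1) rose by 1.39 ± 0.18, E2f2 by 1.08 ± 0.17, the atypical E2F factors E2f7 and E2f8 by 1.40 ± 0.23 and 2.41 ± 0.45, and Mybl2, a partner of MuvB, by 1.22 ± 0.18. The 3 that fell were the CDK inhibitor Cdkn1b (p27, -0.60 ± 0.11) and the antiproliferative Btg2 (-0.59 ± 0.12) and Btg1 (-0.51 ± 0.10), and 5 fell without iTreg replicate 2. Ccnd2 was at 0.01 ± 0.15 and Cdk4 at 0.26 ± 0.12, neither past the threshold. Cdkn1b read 9.29, 9.44, 9.61 and 9.63 in eTreg and 9.08, 8.80, 8.94 and 8.77 in iTreg. Of 30 recombination and repair genes 16 rose (53.3%) and 0 fell, with Rad54l, a partner of the recombinase, at 1.33 ± 0.17 and Brip1, a helicase of the Fanconi pathway, at 1.42 ± 0.23. The damage kinases Atm and Atr were at -0.37 ± 0.14 and -0.24 ± 0.10 and did not pass.

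Cell division varied within the groups as well. The mean of the 39 spindle genes was 7.91, 7.01, 6.89 and 6.52 in eTreg replicates 1 to 4, 7.49, 7.95, 6.79 and 6.64 in e_iTreg and 9.32, 8.76, 9.21 and 8.30 in iTreg. Replicate 1 was the highest of the eTreg arrays and replicate 4 the lowest of the iTreg arrays, and they differed by 0.39. In eTreg the arrays with low B cell markers, replicates 3 and 4, were also the lowest in spindle genes. With the B cell marker mean as a covariate, in a fit of all 12 arrays, 38 of the 39 spindle genes passed. The count was 9 without eTreg replicates 3 and 4 and 39 without eTreg replicates 1 and 2. These last 2 fits had 2 eTreg arrays left each, so their counts and that of the covariate fit do not have like power. For the licensing list the counts were 40, 12 and 37 of 45, and for the kinetochore list 27, 5 and 27 of 35. These arrays hold bulk RNA, so more dividing cells and more of each transcript per cell cannot be told apart.

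**Figure D4:**
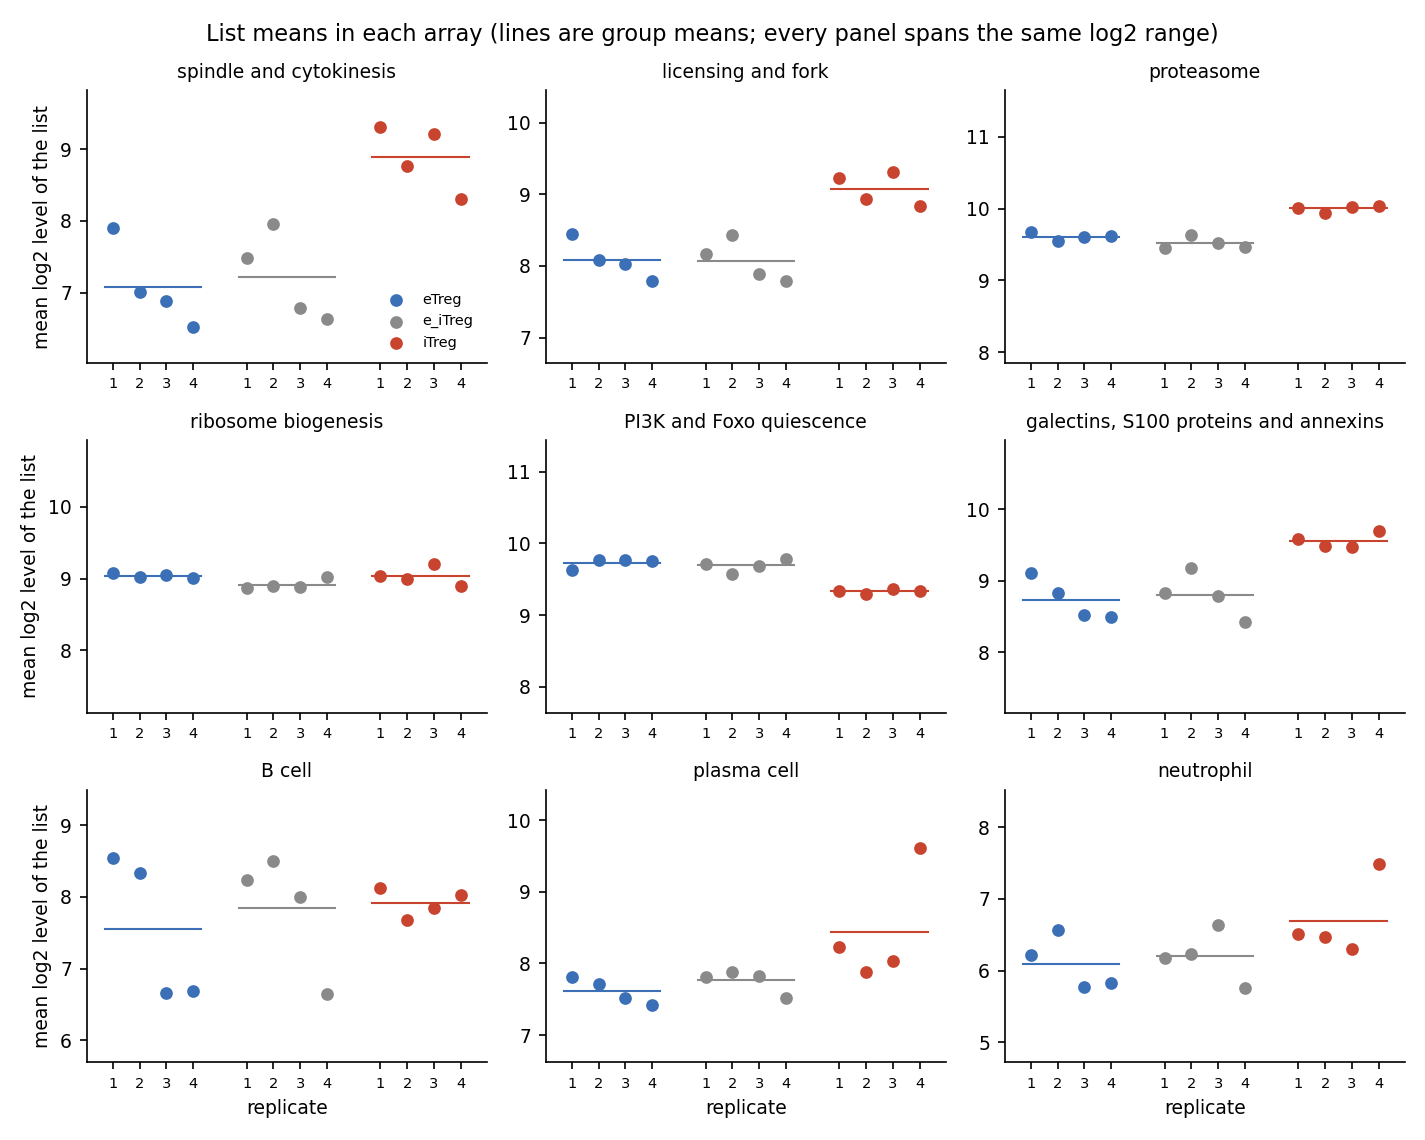
Mean log2 level of 9 gene lists in each array, with replicates 1 to 4 of eTreg (blue), e_iTreg (grey) and iTreg (red) on the x axis and lines at the group means. Every panel spans the same log2 range. Spindle genes lie at 6.52 to 7.91 in eTreg and 8.30 to 9.32 in iTreg, the quiescence list at 9.62 to 9.77 and 9.29 to 9.37, and B cell markers fall below 6.7 in eTreg replicates 3 and 4.

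Protein turnover and mitochondrial genes rose by small amounts. The proteasome degrades ubiquitin-tagged proteins, and 26 of its 37 measured genes rose (70.3%) and 0 fell, with a median of 0.40. Its list mean was 9.67, 9.55, 9.60 and 9.62 in eTreg and 10.01, 9.94, 10.02 and 10.04 in iTreg, 2 narrow and separate ranges. Psmb5, a catalytic subunit, read 10.76, 10.62, 10.49 and 10.63 in eTreg and 11.25, 11.41, 11.31 and 11.35 in iTreg, a difference of 0.70 ± 0.10 (1.63-fold), and Psmd1, of the regulatory cap, rose by 0.68 ± 0.12. The activators Psme1 and Psme2, which interferon induces, were at 0.03 ± 0.09 and 0.22 ± 0.12 and did not pass. The count fell to 12 without eTreg replicate 2, to 16 without iTreg replicate 3 or 4 and to 17 without eTreg replicate 3, eTreg replicate 4 or iTreg replicate 1, and to 2 and 8 without eTreg replicates 3 and 4 or 1 and 2.

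Of 71 mitochondrial ribosome genes 20 rose (28.2%) and 0 fell, among them Mrpl51 (0.66 ± 0.12) and Mrpl18 (0.55 ± 0.10). That count was 9 to 20 with 1 array left out, with 11, 10 and 9 without eTreg replicates 2, 3 and 4 and 12, 13 and 12 without iTreg replicates 1, 2 and 3. Of 28 import and folding genes 6 rose, among them Timm8b (0.64 ± 0.11), a carrier of the intermembrane space, and 3 rose without eTreg replicate 2 or iTreg replicate 3. In the tricarboxylic acid cycle 7 of 20 rose, with Sdhb at 0.58 ± 0.10, Cs (citrate synthase) at 0.51 ± 0.11 and Idh3a at 0.88 ± 0.19, and 3 or 4 rose in 7 of the 8 fits with 1 array left out, all but that without eTreg replicate 1. The pentose phosphate enzymes Taldo1, Pgd and Rpia rose, by 0.67 ± 0.11, 0.56 ± 0.12 and 0.32 ± 0.10, of 5 measured. The call on Rpia (adjusted p = 0.0496 by limma) ended in 7 of the 8 fits with 1 array left out and with a replicate block.

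Sterol synthesis and thiol redox enzymes rose in part. Of 25 sterol and fatty acid genes 8 rose (32%) and 0 fell, all 8 in the sterol branch. Fdps, which makes farnesyl diphosphate, read 8.29, 8.02, 8.12 and 8.37 in eTreg and 9.19, 8.88, 9.32 and 9.36 in iTreg, a difference of 0.99 ± 0.16. Sqle, squalene epoxidase, rose by 0.78 ± 0.13 and Ebp, a sterol isomerase, by 0.82 ± 0.14, while the fatty acid enzymes Fasn (0.22 ± 0.11), Acaca (0.07 ± 0.13) and Acly (0.26 ± 0.12) did not pass. Of 20 redox enzymes 7 rose, led by Glrx, glutaredoxin (1.54 ± 0.30), Prdx4, a peroxiredoxin of the secretory pathway (1.39 ± 0.18) and Txn1, thioredoxin (0.78 ± 0.13). The 2 that fell were Txnip, the thioredoxin-binding protein (-0.48 ± 0.14), and Gclc, of glutathione synthesis (-0.35 ± 0.09), and both calls ended when eTreg replicate 2 or iTreg replicate 1 or 3 was left out.

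Genes of ribosome building and nutrient uptake changed in 1 of 38 and 1 of 15 measured members, beside 9.99% of all probe sets. Of 38 ribosome biogenesis genes 1 rose, Noc4l (0.44 ± 0.12, a call that ended without eTreg replicate 2, 3 or 4 or iTreg replicate 1 or 3), and 0 fell, with a median of -0.03, beside -0.01 over all probe sets. The list mean was 9.08, 9.02, 9.05 and 9.01 in eTreg and 9.04, 8.99, 9.20 and 8.90 in iTreg, which overlap. Of 15 genes of amino acid and glucose uptake with Myc and Mycn, 0 rose and Myc fell (6.67%, near the 4.63% of all probe sets). Myc, a driver of growth and of ribosome biogenesis, read 10.31, 10.43, 9.97 and 10.08 in eTreg and 9.63, 9.90, 9.94 and 9.71 in iTreg, a difference of -0.40 ± 0.12 (adjusted p = 0.0486), a call that ended in 7 of the 8 fits with 1 array left out, all but that without eTreg replicate 3. The amino acid transporter Slc7a5 was at 0.12 ± 0.18, its heavy chain Slc3a2 at -0.04 ± 0.19 and the glucose transporter Slc2a1 at -0.05 ± 0.11. Chaperonin and prefoldin genes, which fold tubulin and actin, rose in 2 of 13 (15.4%, against 5.36% of all probe sets). These were Pfdn6 (0.47 ± 0.11) and Tcp1 (0.41 ± 0.11), 1 or both of which were lost without eTreg replicate 2 or 3 or iTreg replicate 1 or 3.

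**Figure D5:**
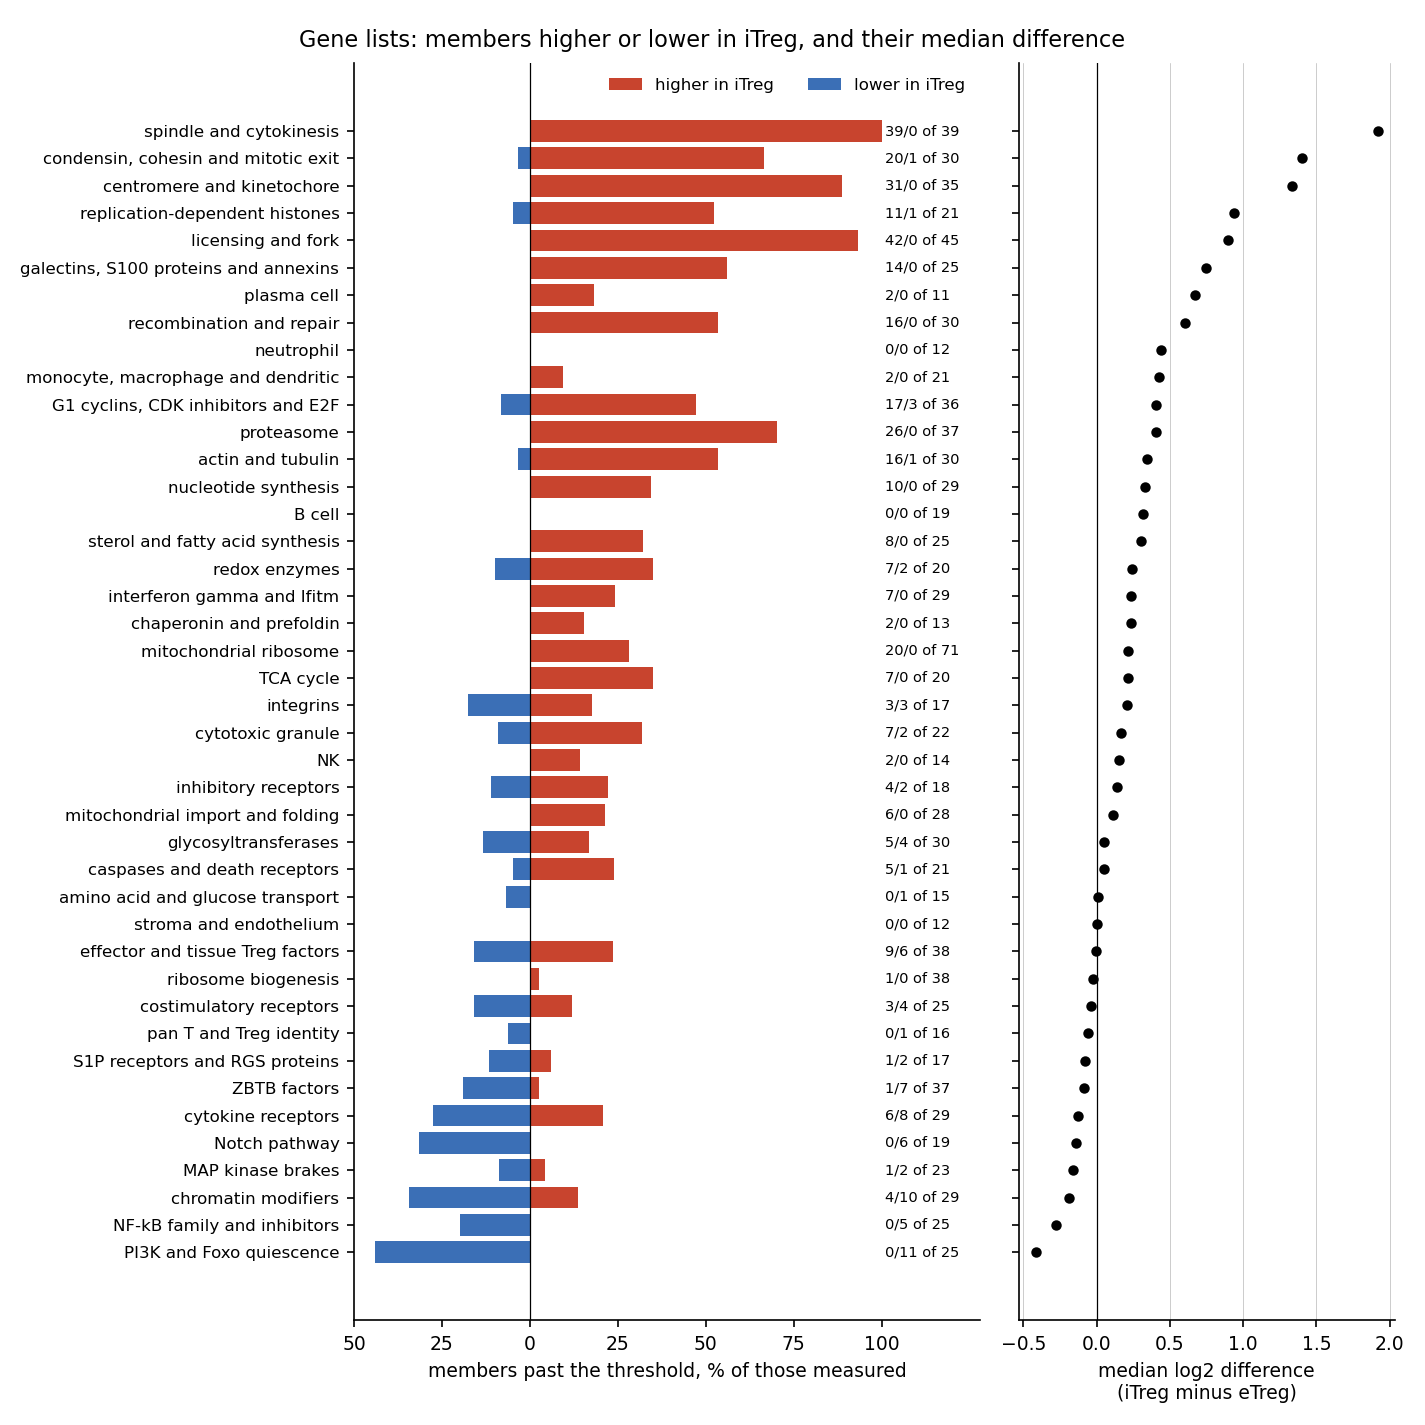
Left, the share of each list's measured members that rose (red, to the right) or fell (blue, to the left) in iTreg, in percent, with the counts higher and lower beside the bars. Right, the median log2 difference of all measured members. The 3 mitotic lists, the histones and the licensing list stand at the top with medians of 0.89 to 1.92, ribosome biogenesis lies near 0 with 1 of 38, and the quiescence list is lowest with 11 of 25 lower and a median of -0.42.

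Interferon-linked genes rose in part. Ifitm2 and Ifitm3, interferon-induced membrane proteins that restrict virus entry, were the fourth and fourteenth largest named rises. Their promoters are shown with the interferon response motif (2 GAAA blocks 2 bases apart, GAAANNGAAA, both strands) in capitals, over chr7:140955932-140956111 and chr7:141010715-141010894, both on the minus strand of GRCm38.p6, because these genes rose most among those with the motif.
Ifitm2: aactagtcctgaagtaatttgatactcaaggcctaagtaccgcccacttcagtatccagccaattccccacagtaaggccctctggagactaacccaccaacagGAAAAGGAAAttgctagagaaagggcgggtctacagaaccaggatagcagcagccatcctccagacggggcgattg
Ifitm3: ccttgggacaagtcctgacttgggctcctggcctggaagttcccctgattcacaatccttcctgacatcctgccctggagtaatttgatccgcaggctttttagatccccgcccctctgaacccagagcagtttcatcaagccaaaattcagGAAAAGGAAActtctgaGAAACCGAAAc
The match began 46 bases before the start in Ifitm2, and Ifitm3 had 2 matches within the first 30 bases after the start. The motif was found in 52.4% of 21 promoters of the interferon list, in 5.07% of genes that rose, 3.25% of those that fell and 3.88% of all. E2f8 was the third by size of rise, with its match 231 bases before the start in a run of A and G.

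Ifitm2 read 7.93, 7.61, 7.53 and 7.12 in eTreg replicates 1 to 4 and 10.37, 10.25, 9.79 and 11.21 in iTreg replicates 1 to 4, a difference of 2.86 ± 0.27 (adjusted p = 0.000153). Ifitm3 read 7.12, 7.03, 7.02 and 6.68 and 9.09, 9.33, 9.07 and 10.35, a difference of 2.49 ± 0.22, and Ifitm1 rose by 1.10 ± 0.27. The eTreg arrays of Ifitm3 lay within 0.44 of each other, and iTreg replicate 4 was the highest of the 8 for both genes. The family's sequences are alike and their probe sets may share signal. In the list of interferon gamma, its targets and the Ifitm genes 7 of 29 rose (24.1%) and 0 fell. Ifng itself read 7.54, 7.26, 7.45 and 6.97 in eTreg and 9.16, 8.83, 8.18 and 8.01 in iTreg, a difference of 1.24 ± 0.21, and the targets Iigp1, Gbp7 and Irgm1, all GTPases of cell defence, rose by 0.999 ± 0.20, 0.68 ± 0.19 and 0.44 ± 0.12. Other targets of interferon gamma did not pass, among them Irf1 at 0.25 ± 0.13, Tap1 at 0.16 ± 0.11, Socs1 at -0.03 ± 0.12 and Ciita at 0.06 ± 0.21. Without eTreg replicate 3 the count was 4.

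Receptors for inflammatory cytokines moved in both directions. Of 29 cytokine receptors and related genes 6 rose (20.7%) and 8 fell (27.6%), against 5.36% and 4.63% of all probe sets. Il12rb2, the signalling chain of the interleukin-12 receptor, read 5.52, 5.75, 5.56 and 5.94 in eTreg and 8.26, 7.25, 7.76 and 8.53 in iTreg, a difference of 2.25 ± 0.22 (4.77-fold, adjusted p = 0.000153). Its partner Il12rb1 rose by 1.06 ± 0.18, and the interleukin-18 receptor chains Il18r1 and Il18rap rose by 0.77 ± 0.23 and 0.91 ± 0.27, with Il1r1 at 0.79 ± 0.19 and the ligand Csf1 at 0.53 ± 0.15. The IL-12 receptor pair lay apart between the groups in every array. Ifngr2, the signalling chain of the interferon gamma receptor, fell, from 10.23, 10.07, 10.98 and 9.86 in eTreg to 8.97, 9.21, 9.02 and 9.35 in iTreg, a difference of -1.14 ± 0.20, while its partner Ifngr1 was at 0.12 ± 0.19 and did not pass. Also lower were both interleukin-6 receptor chains, Il6ra (-0.70 ± 0.12) and Il6st (-0.65 ± 0.15), the interleukin-7 receptor Il7r (-0.72 ± 0.13), Il27ra (-0.37 ± 0.10), Ifnar2 (-0.36 ± 0.10) and the TGF-beta family receptors Tgfbr3 (-0.48 ± 0.12) and Acvr1b (-0.45 ± 0.12). Several of these calls were near the threshold: 3 rose without eTreg replicate 2, 3 or 4 or iTreg replicate 1 or 4, and 4, 4, 3 and 5 fell without eTreg replicate 2, eTreg replicate 3, iTreg replicate 1 and iTreg replicate 4.

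Inhibitory and costimulatory receptors changed in both directions, in 6 of 18 and 7 of 25 measured members, beside 9.99% of all probe sets. Of 18 inhibitory receptors Havcr2 (TIM-3, 1.79 ± 0.34), Tigit (1.21 ± 0.31), Lair1, a collagen receptor (1.03 ± 0.16), and Lag3 (0.90 ± 0.17) rose, and Cd96 (-1.09 ± 0.15) and Pecam1 (-0.45 ± 0.09) fell. Cd96 and Tigit, which share the ligand CD155, thus moved in opposite directions, and Cd96 read 11.15, 11.46, 11.53 and 11.60 in eTreg and 10.21, 10.68, 10.47 and 10.04 in iTreg with no overlap. For Tigit the groups overlapped, and its call ended without eTreg replicate 2 or 4 or iTreg replicate 1 or 4. Pdcd1 was at -0.21 ± 0.20 and Ctla4 at -0.10 ± 0.12, with a 95% interval of -0.36 to 0.16. Of 25 costimulatory receptors Icos (1.03 ± 0.21), Cd40lg (0.69 ± 0.19) and Cd80 (0.69 ± 0.19) rose and Cd86 (-0.85 ± 0.15), Cd84 (-0.63 ± 0.10), Tnfrsf25 (-0.56 ± 0.11) and Cd27 (-0.50 ± 0.13) fell. Cd80 and Cd86 encode the 2 ligands of CD28 and CTLA-4, and Cd86 read 9.34, 9.73, 9.79 and 9.17 in eTreg against 8.66, 8.66, 8.72 and 8.58 in iTreg. The call on Cd27 ended without eTreg replicate 2 or 4 or iTreg replicate 1, 2 or 3. The costimulatory rises numbered 1 without eTreg replicate 2, 3 or 4 or iTreg replicate 1, 2 or 3.

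Adhesion and carbohydrate enzymes shifted member by member. Of the integrins 17.6% rose and 17.6% fell, against 5.36% and 4.63% of all probe sets. Itgam (CD11b, 1.68 ± 0.29), which is also a myeloid marker, Itga2 (1.11 ± 0.29) and Itgb7 (0.41 ± 0.10) rose among 17 integrins, and Itgb8 (-0.71 ± 0.15), whose protein activates latent TGF-beta, Itga6 (-0.51 ± 0.14) and Itga5 (-0.47 ± 0.13) fell. Itgam read 7.10, 6.76, 6.30 and 6.45 in eTreg and 8.57, 7.77, 8.002 and 8.99 in iTreg, with no overlap. Its call ended without eTreg replicates 3 and 4, and the part of myeloid cells in it was not tested. The integrin rises numbered 1 without eTreg replicate 3, eTreg replicate 4 or iTreg replicate 4 and 5 without iTreg replicate 2, and the falls 1 without eTreg replicate 2 or 4 or iTreg replicate 1 or 2. Of 30 glycosyltransferases 5 rose (16.7%) and 4 fell (13.3%). Those that rose included Fut7 (1.10 ± 0.18) and Gcnt1 (1.05 ± 0.19), both needed for selectin ligands, and B4galt5 (0.94 ± 0.13). The 4 that fell were the sialyltransferases St8sia6 (-1.27 ± 0.21), St8sia1 (-0.86 ± 0.21) and St6galnac3 (-0.76 ± 0.18), and Mgat5 (-0.51 ± 0.12), which branches N-glycans. The rises numbered 3 without eTreg replicate 2, eTreg replicate 4 or iTreg replicate 1, and the falls 2 without eTreg replicate 3. Ccr7, the chemokine receptor that keeps T cells in lymphoid tissue, read 10.76, 10.81, 11.81 and 10.48 in eTreg and 9.63, 9.59, 9.71 and 9.90 in iTreg, a difference of -1.26 ± 0.22, and its groups did not overlap. Ccr2, a receptor for inflammatory chemokines named here after its values were seen, rose by 1.96 ± 0.39. Its arrays spanned 1.60 in eTreg and 1.44 in iTreg, and its call ended without eTreg replicates 3 and 4. As for Itgam, the part of myeloid cells in it was not tested. S1pr4, a sphingosine 1-phosphate receptor, rose by 0.91 ± 0.16, and S1pr1, the receptor for exit from lymphoid tissue, was at -0.30 ± 0.10 and did not pass (adjusted p = 0.0647).

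Annexins, galectins and S100 proteins rose in most members measured. Of 25 measured 14 rose (56%) and 0 fell, with a median of 0.74, and the list mean was 9.10, 8.83, 8.53 and 8.49 in eTreg and 9.58, 9.49, 9.47 and 9.69 in iTreg. Anxa2, a calcium-dependent membrane binder, read 8.65, 7.76, 7.80 and 7.17 in eTreg and 10.59, 10.21, 10.24 and 10.13 in iTreg, a difference of 2.45 ± 0.31, and its partner S100a10 rose by 0.88 ± 0.19. Lgals3 (galectin-3) rose by 1.29 ± 0.21, Crip1 by 1.16 ± 0.19 and S100a6 by 2.24 ± 0.42. S100a8 and S100a9, which neutrophils carry in abundance, were at 1.52 ± 0.51 and 0.87 ± 0.35 and did not pass. Without eTreg replicates 3 and 4 only 2 of the 25 passed, and 15 without eTreg replicates 1 and 2.

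Granule and cytoskeleton genes rose in part. Against 5.36% and 4.63% of all probe sets, 2 of 22 cytotoxic granule genes fell (9.09%) and 7 rose (31.8%). Beside Gzmb these were Gzma (2.20 ± 0.33), Nkg7 (1.85 ± 0.17), Ctsc, the protease that activates granzymes (0.70 ± 0.12), Gzmk (0.58 ± 0.10), Rab27a, which docks granules (0.55 ± 0.13), and Serpinb9, the inhibitor of granzyme B (0.45 ± 0.12). Nkg7 read 9.33, 9.28, 9.18 and 8.64 in eTreg and 11.15, 11.16, 10.62 and 10.90 in iTreg, a difference much larger than the spread in either group. The cathepsin Ctsw (-0.74 ± 0.12) and the lysosomal membrane protein Lamp1 (-0.58 ± 0.10) fell, and perforin, Prf1, was at -0.09 ± 0.11. Of 30 actin and tubulin genes 16 rose, led by Tagln2 (1.28 ± 0.18) and Actg1 (1.21 ± 0.16), and Tubb2a fell (-0.94 ± 0.20). That count was 9, 8 and 9 without eTreg replicates 2, 3 and 4 and 9 and 10 without iTreg replicates 1 and 3.

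Genes that hold lymphocytes at rest fell in part. Of 25 measured members of the PI3K and Foxo quiescence list 11 fell (44%, against 4.63% of all probe sets) and 0 rose, with a median of -0.42. The list mean was 9.62, 9.77, 9.77 and 9.76 in eTreg and 9.34, 9.29, 9.37 and 9.34 in iTreg, with e_iTreg at 9.71, 9.58, 9.69 and 9.79. Pik3ip1, an inhibitor of PI3 kinase, read 8.85, 8.995, 8.92 and 9.13 in eTreg and 7.87, 8.11, 8.41 and 8.07 in iTreg, a difference of -0.86 ± 0.12. Sesn1 and Sesn3, sestrins that restrain mTORC1, fell by 0.87 ± 0.16 and 0.63 ± 0.13, Inpp4b, a phosphoinositide phosphatase, by 0.73 ± 0.14 and Irs2, an insulin receptor substrate, by 0.98 ± 0.19. Irs2 carries insulin receptor signals into PI3 kinase, so the members that fell include both brakes and a conductor of the pathway. The factors Foxo1 (-0.31 ± 0.10), Foxo3 (-0.37 ± 0.13) and Klf2 (-0.49 ± 0.17) did not pass. The count was 2 without eTreg replicates 3 and 4 and 7 without eTreg replicates 1 and 2, and 8 to 12 with 1 array left out.

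The largest named falls were outside this list. Zbtb10, a zinc finger factor, read 9.66, 9.66, 10.47 and 9.33 in eTreg and 8.26, 8.76, 8.50 and 7.34 in iTreg, a difference of -1.56 ± 0.29, with iTreg replicate 4 the lowest array. Vps37b, of the ESCRT sorting complex, differed by -1.43 ± 0.30 and Neurl3, a ubiquitin ligase, by -1.37 ± 0.17, from 11.79, 11.80, 12.21 and 11.85 to 10.99, 10.41, 10.67 and 10.10. Ttc28 had the smallest error of the 20 largest named falls, reading 8.55, 8.61, 8.71 and 8.59 in eTreg and 7.22, 7.58, 7.71 and 7.15 in iTreg, a difference of -1.20 ± 0.13 (adjusted p = 0.00046). Lrig1, a restrainer of growth factor receptors, differed by -1.46 ± 0.27. Igf1r, the insulin-like growth factor receptor, fell by 1.15 ± 0.18, Gucy1a1, a subunit of the nitric oxide receptor, by 1.28 ± 0.24, and Arhgap20, a GTPase-activating protein, by 1.33 ± 0.27. Of the 20 largest named falls, Gsta4 was the one whose groups overlapped. Plagl1, Jmy and Gsta4 lost their calls in some fits with 1 array left out.

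NF-kB genes fell in a minority of members. Of 25 NF-kB genes 5 fell (20%) and 0 rose, which were Map3k14, the kinase NIK (-0.75 ± 0.15), Rel (-0.57 ± 0.14), Traf1 (-0.54 ± 0.09), and the inhibitors Tnfaip3 (A20, -0.46 ± 0.13) and Tnip1 (-0.44 ± 0.09). Traf1 read 10.82, 10.85, 10.86 and 10.81 in eTreg, within 0.05 of each other, and 10.36, 10.45, 10.22 and 10.15 in iTreg. After quantile normalization 10 fell, and the call on Tnfaip3 (adjusted p = 0.0442 by limma) ended in 6 of the 8 fits with 1 array left out, after median centring and with array weights. Among 23 brakes and other regulators of MAP kinases Dusp10 (-0.93 ± 0.18) and Dusp5 (-0.52 ± 0.15) fell. The Rap activator Rasgrp2, which is not a brake, rose (0.40 ± 0.11). The shares of 8.7% lower and 4.35% higher stood beside 4.63% and 5.36% of all probe sets. With 1 array left out the counts ran from 0 to 1 higher and from 1 to 3 lower, with 0 higher in 6 of those 8 fits and 1 lower in 5. Of 19 Notch pathway genes 6 fell (31.6%, against 4.63% of all probe sets) and 0 rose. The target Hey1 was at -1.02 ± 0.23, the receptor Notch2 at -0.46 ± 0.11 and the coactivators Maml2 and Maml3 at -0.41 ± 0.10 and -0.42 ± 0.12. The call on Maml3 ended with a replicate block, after median centring or quantile normalization and in 6 of the 8 fits with 1 array left out. Hes1 was at -0.04 ± 0.12 and Rbpj at -0.13 ± 0.13, not past the threshold, and 3 fell without iTreg replicate 4 and 0 without the 2 arrays low in Y-linked genes.

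Transcription factors and chromatin genes moved in both directions. Of 38 effector and tissue Treg factors 9 rose (23.7%) and 6 fell (15.8%), against 5.36% and 4.63% of all probe sets. Tbx21 (T-bet) read 8.01, 7.49, 7.58 and 7.40 in eTreg and 9.53, 9.06, 9.09 and 8.85 in iTreg, a difference of 1.51 ± 0.15, and Runx3, a partner of T-bet, rose by 0.87 ± 0.13. Foxp1 and Bach2, factors of the naive state, fell by 0.91 ± 0.12 and 1.02 ± 0.15, and Ikzf4 (Eos) by 1.04 ± 0.14. Without eTreg replicate 3 the falls numbered 3. Of 37 ZBTB factors 7 fell (18.9%, against 4.63% of all probe sets). Zbtb32, a repressor induced in activated lymphocytes, was the 1 that rose (2.7%, against 5.36%), by 1.65 ± 0.27. Zbtb20 fell by 1.01 ± 0.15 and Zbtb39 by 0.84 ± 0.14, and the falls numbered 4, 3, 3 and 4 without eTreg replicate 2, eTreg replicate 3, iTreg replicate 1 and iTreg replicate 2.

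Of 29 chromatin modifiers 4 rose (13.8%) and 10 fell (34.5%), against 5.36% and 4.63% of all probe sets. The rises were in Hells, a remodeller of heterochromatin (1.61 ± 0.29), Hmgb2 (1.45 ± 0.34), the heterochromatin protein Cbx5 (1.19 ± 0.17) and Ezh2, the catalytic subunit of PRC2 (0.90 ± 0.16), all known to be high in dividing cells. Its alternative Ezh1 fell, at -0.54 ± 0.11. The falls included the H3K4 methyltransferases Kmt2a (-0.67 ± 0.10), Kmt2c (-0.51 ± 0.11) and Kmt2d (-0.54 ± 0.11) and the demethylases Kdm5b (-0.88 ± 0.13) and Kdm6b (-0.66 ± 0.17), and 6 fell without eTreg replicate 2 or iTreg replicate 2. Kmt2a read 11.18, 11.27, 11.13 and 11.49 in eTreg and 10.54, 10.53, 10.71 and 10.61 in iTreg.

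Cell death genes changed in 6 of 21, with 23.8% higher and 4.76% lower, against 5.36% and 4.63% of all probe sets. Ripk3 and its substrate Mlkl, which carry out necroptosis, rose by 0.95 ± 0.15 and 0.64 ± 0.14, as did Casp1, Apaf1 and Tradd, by 0.59 ± 0.18, 0.57 ± 0.15 and 0.53 ± 0.12, while the death receptor Fas fell, at -0.56 ± 0.17. Ripk3 read 9.18, 8.74, 8.78 and 8.51 in eTreg and 9.78, 9.42, 9.90 and 9.90 in iTreg. The rises numbered 3 without eTreg replicate 3 or 4 or iTreg replicate 1 or 3, and the call on Fas ended without eTreg replicate 2, 3 or 4 or iTreg replicate 1 or 3. Morrbid, a long noncoding RNA known to prolong the life of myeloid cells and named after its values were seen, rose by 1.97 ± 0.25, and so did Emp1, a membrane protein chosen in the same way, by 2.06 ± 0.25.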

How the data were processed

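RNA from sorted splenic Treg was amplified from 2 ng in 2 rounds and hybridised to 12 one-colour arrays, 4 biological replicates per group per the labels, and precision is limited by that number. The deposited values are log2 expression per probe set, made by the authors with oligo and RMA per the submitters' processing notes. Their versions, their settings and the array's genome build are not given in the sources used here. Probe sets were named from the platform annotation: of 41345 rows 23521 had 1 symbol, 1814 several and 16010 none, and 23328 of the first matched RefSeq. limma 3.58.1 in R 4.3.3 (lmFit, eBayes) was fitted to all 12 arrays in 3 groups with no covariate and no level filter. On simulated data with 200 changed probe sets, independent noise and no shared array effects it recovered 97.3% of changes of 1 and 37.6% of changes of 0.5 on the log2 scale. Far more probe sets passed in the real arrays, which also differed within groups, so these shares need not hold for them. A change of the smaller size that did not pass may still have been missed. Gene lists used the brightest probe set per gene and got no test. Named were the 20 largest rises and falls (gene models, clones, small RNAs and receptor segments left out), up to 5 members per list with the smallest p, and 5 Treg genes. Other list members were named after their values were seen. The members and lists were chosen with earlier results of these data known. Alternatives covered scaling, filters, annotation, the fit and arrays left out.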

Additional observations from a re-analysis of the deposited data

Results flagged for a closer look

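Within each group of 4 arrays, a gene or list was marked when the gap between its highest or lowest array and the nearest other array exceeded Dixon's 95% critical share of the whole range. Of 546 groups tested 28 were marked, and chance marks about 1 in 20. Array eTreg replicate 4 was low for the cytokine receptors list mean (9.13, gap 0.878 of the range). Array eTreg replicate 4 was low for the glycosyltransferases list mean (7.92, gap 0.880 of the range). Array eTreg replicate 1 was low for the PI3K and Foxo quiescence list mean (9.62, gap 0.898 of the range). Array eTreg replicate 1 was low for the ZBTB factors list mean (7.50, gap 0.894 of the range). Array iTreg replicate 2 was low for the caspases and death receptors list mean (8.26, gap 0.891 of the range). Array iTreg replicate 4 was high for the monocyte, macrophage and dendritic list mean (7.89, gap 0.895 of the range). 

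Among genes, eTreg replicate 1 was low for Foxp1 (10.40, gap 0.873) and high for Hmmr (6.70, gap 0.884). Among genes, eTreg replicate 2 was high for Maml3 (7.34, gap 0.930). Among genes, eTreg replicate 3 was high for Ctla4 (12.10, gap 0.875), high for Neurl3 (12.21, gap 0.867), low for Pgd (8.66, gap 0.870), low for Serpinb9 (7.12, gap 0.8292) and high for St6galnac3 (7.96, gap 0.842). Among genes, eTreg replicate 4 was high for Sesn1 (9.49, gap 0.900) and low for Slc3a2 (10.11, gap 0.851). Among genes, iTreg replicate 2 was high for Gins4 (9.99, gap 0.833) and low for Stag2 (8.38, gap 0.925). Among genes, iTreg replicate 3 was high for Cad (9.42, gap 0.833), low for Ebp (10.47, gap 0.909) and high for Gart (9.49, gap 0.928). Among genes, iTreg replicate 4 was high for Cd27 (10.14, gap 0.883), high for Ifitm1 (8.30, gap 0.907), high for Itga6 (9.72, gap 0.853), low for Pcna (11.88, gap 0.912), high for S100a8 (8.52, gap 0.869), high for Tyrobp (8.86, gap 0.869) and low for Zbtb32 (8.90, gap 0.881). The array iTreg replicate 4 was also the highest in plasma cell and neutrophil markers, and the part of these cells in its marked values was not tested.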

How the results depend on the processing

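In the fit as reported 1261 probe sets were higher and 1088 lower in iTreg. Quantile normalization, median centring, both level filters, 1 probe set per gene, all 41345 rows with or without a symbol, an intensity trend with robust fitting, array weights, the fit of 2 groups alone and adjusted p 0.1 kept both counts within 1.5 times of these. A fold of at least 1.5 besides the test left 692 higher and 397 lower. With 1 array left out 834 to 1303 were higher and 653 to 956 lower, and the counts moved by over 1.5 times without eTreg replicate 3 (both directions), without eTreg replicate 2 (681 lower) and without iTreg replicate 1 (723 lower). The next 5 settings were chosen after seeing the data. Without eTreg replicates 3 and 4, which had low B cell marker means, 204 were higher and 202 lower, and without eTreg replicates 1 and 2, 936 were higher and 554 lower. Without the arrays low in Y-linked genes, eTreg replicate 3 and iTreg replicate 4, 716 were higher and 511 lower. With the B cell marker mean as a covariate the counts were 1084 and 892, and with the Xist level 1223 and 1030. Fits with fewer arrays have fewer degrees of freedom, and the cause of the unequal losses was not tested. Of 258 named genes 198 passed and 169 of these passed in all of the settings named before those 5 (the fold minimum aside) and with a replicate block, and 0 of the 198 changed direction in any setting. The added settings ended more of these calls: 106 without eTreg replicates 3 and 4, 40 without the arrays low in Y-linked genes and 26 without eTreg replicates 1 and 2. Of the 175 genes that passed and stand in the text with a value, 40 lost the call in at least 1 fit with 1 array left out, and 34 of them in 4 or more such fits (Acvr1b, Apaf1, Casp1, Cd27, Cd40lg, Cd80, Csf1, Dusp5, Fas, Gbp7, Gclc, H4c14, Ifnar2, Il18r1, Il18rap, Il27ra, Irgm1, Itga2, Itga5, Itga6, Itgb7, Kdm6b, Maml3, Myc, Noc4l, Rasgrp2, Rpia, Serpinb9, Smc4, Tcp1, Tgfbr3, Tigit, Tnfaip3 and Txnip). The replicate numbers are shared between groups, but samples of the same number did not deviate together (correlations of -0.04 to 0.121, others -0.141 to 0.09), so the samples were not taken as paired, and the fit with a replicate block gave 1204 higher and 1021 lower. The block ended 5 of the 198 named calls, and among genes with a value in the text it ended those on Casp1, Ifnar2, Maml3, Myc, Rpia, Smc4 and Txnip. Probe sets near background have compressed differences on these arrays, and their limit was not measured.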
